A study of Homo sapiens with 12 samples.

Results

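NRF2, encoded by NFE2L2, is the transcription factor that switches on antioxidant and detoxification genes when a cell meets oxidants or electrophiles. In unstressed cells the adaptor protein KEAP1 binds NRF2 and hands it to a CUL3 ubiquitin ligase for degradation, so that NRF2 activity is set largely by protein stability and is read out through its target transcripts. NRF2 acts with small MAF proteins at antioxidant response elements near genes for glutathione synthesis, thioredoxin reduction, heme breakdown, quinone reduction and NADPH supply. The 9 genes described here are NFE2L2 and KEAP1 themselves and 7 widely used target genes, NQO1, HMOX1, GCLM, GCLC, TXNRD1, SRXN1 and ME1. They were chosen by name and all 9 were found among the 29972 gene rows of each of the 2 deposited tables.

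The libraries came from MDA-MB-436 and BoM-1833, 2 triple-negative breast cancer lines. BoM-1833 is a bone-seeking line that does not derive from MDA-MB-436. All cells were transfected with 5 nM siRNA and harvested after 72 h. The control group of each line received a non-targeting siRNA pool (siNT). The treated group received a 1:1 mix of 2 siRNAs against PHF19 (siPHF19), an accessory subunit of Polycomb repressive complex PRC2, from a different supplier, so the effect of either siRNA alone was not measured. Each of the 4 groups held 3 libraries from the unmodified cell line, and nothing in the labels says whether the 3 came from separate cultures, so p-values measure the spread between these libraries. Values are normalized counts, that is, reads per gene divided by 1 size factor per library. A gene is called where its p adjusted by the Benjamini-Hochberg method (BH) is under 0.05 in the authors' deposited table, from the Wald test of DESeq2.

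Reads in genes numbered 15.2 to 24.0 M per library in MDA-MB-436 and 13.7 to 21.3 M in BoM-1833. By the authors' deposited table PHF19, the targeted gene, fell by 3.36 (SE 0.11) on the log2 scale in MDA-MB-436 and by 3.19 (SE 0.10) in BoM-1833, and its groups did not overlap. ESR1 and PGR, the hormone receptor genes that triple-negative tumors lack, had at most 3.97 normalized counts in any library, while ERBB2 had 932 to 1179. Of 10 markers of leukocytes, macrophages, endothelium, fibroblasts and hepatocytes, CD3E and DCN were at 0 in all 12 libraries, and PTPRC, CDH5, LUM and ALB had at most 21.2 normalized counts. The fibroblast marker COL1A1 was higher without overlap after siPHF19 in both lines, at 63.6 to 88.4 against 113 to 129 in MDA-MB-436 and 287 to 323 against 464 to 485 in BoM-1833. PDGFRB was so in BoM-1833 (162 to 216 against 235 to 270.3), and CD68 was lower without overlap in MDA-MB-436 (708 to 807 against 558 to 619). PECAM1 overlapped in both lines. The summed count of the 10 was 826 to 915 in MDA-MB-436 siNT, 713 to 793 in MDA-MB-436 siPHF19, 3884 to 4290.1 in BoM-1833 siNT and 4014 to 4150.4 in BoM-1833 siPHF19, most of it CD68; the part of these markers in the results below was not tested. In such bulk libraries a lower level in every cell and a loss from some cells cannot be told apart.

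Antioxidant response elements contain the core TGACNNNGC. Matches to it near the start sites of the members are shown because NRF2 acts at such elements. RefSeq promoter windows of 300 bases (250 before and 50 from the start, build GRCh38.p14) were matched by symbol for 8 members, all but HMOX1. The core was found on either strand in 5 of their 11 windows, which belong to KEAP1, GCLM, TXNRD1 and ME1, against 13.3% of all 35116 windows. Each is printed on the strand on which it reads TGACNNNGC, with the core in capitals. The core can overlap the binding sequence of AP-1 factors, and a match is a description of letters, not of binding. Bases outside the windows were not searched, so a gene without a match may hold the core elsewhere.
KEAP1, chr19:10502807-10502835, minus strand: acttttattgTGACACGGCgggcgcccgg
KEAP1, chr19:10502784-10502812, plus strand: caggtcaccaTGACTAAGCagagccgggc
GCLM, chr1:93909446-93909474, plus strand: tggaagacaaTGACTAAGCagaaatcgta
TXNRD1, chr12:104215670-104215698, plus strand: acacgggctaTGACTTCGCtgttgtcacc
TXNRD1, chr12:104215761-104215789, minus strand: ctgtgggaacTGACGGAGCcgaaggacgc
TXNRD1, chr12:104286920-104286948, minus strand: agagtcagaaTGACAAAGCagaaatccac
ME1, chr6:83431170-83431198, minus strand: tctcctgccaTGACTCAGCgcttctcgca
ME1, chr6:83431022-83431050, plus strand: gctgctggggTGACGGTGCtgactgcagc
The GCLM match and the second KEAP1 match share the same 9-base core. The 2 TXNRD1 windows belong to 2 alternative starts of the gene, and each holds at least 1 match.

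Most of the family did not pass the test after PHF19 knockdown, and no member was called in both lines, where 2.55% of genes tested in both were called higher and 3.12% lower. In MDA-MB-436 the one member called was TXNRD1, which rose, and in BoM-1833 the one called was GCLM, which fell. Among all genes tested, 22.1% were called in MDA-MB-436 (10.5% higher, 11.5% lower) and 10.9% in BoM-1833 (5.21% higher, 5.72% lower), beside 1 called member of 9, or 11.1%, in each line. That share is under the background of all calls in MDA-MB-436 and close to it in BoM-1833. Against genes called in the same direction it is close in MDA-MB-436 (10.5% higher) and above in BoM-1833 (5.72% lower), where it rests on GCLM alone. The median log2 fold change of the 9 members was -0.10 in BoM-1833 and 0.01 in MDA-MB-436, against 0.00 over all genes tested in each line. The median absolute log2 fold change of the members was 0.10 in both lines, while all genes had 0.12 in BoM-1833 and 0.18 in MDA-MB-436.

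**Figure D1:**
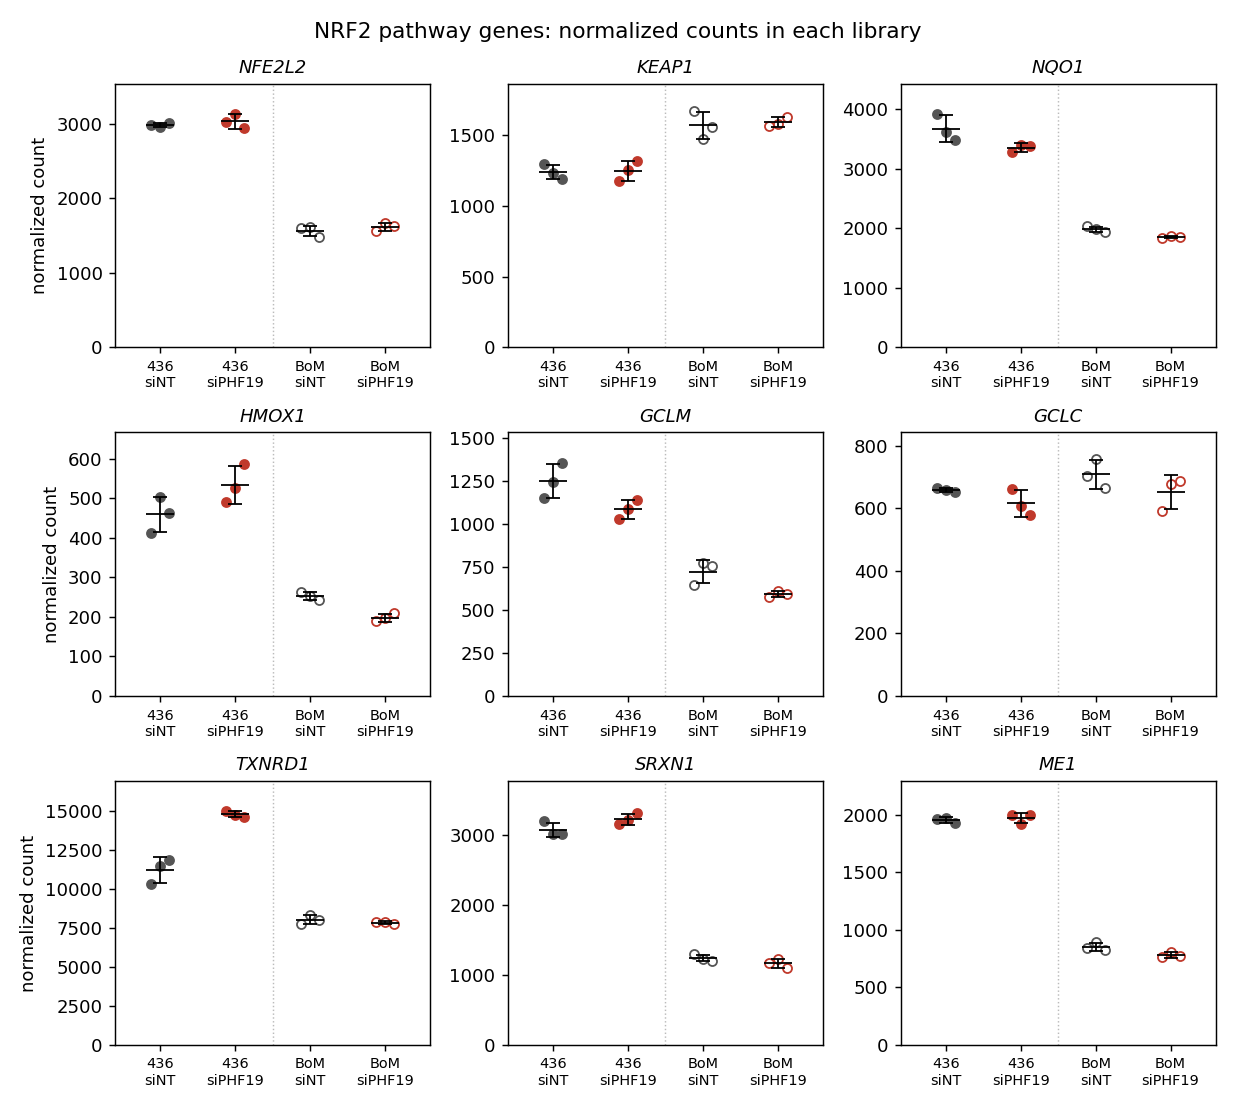
Normalized counts (y axis, linear from 0) of the 9 genes in each of the 12 libraries, by group (x axis; 436, MDA-MB-436; BoM, BoM-1833). Points are libraries, bars the mean and SD of 3; the tables of the 2 lines were normalized separately, and the 3 siPHF19 points of TXNRD1 in MDA-MB-436, between 14624 and 14994, lie above the 3 siNT points.

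The transcripts of the regulator and its inhibitor were close to their control levels in both lines. NFE2L2 (chromosome 2, 177227595 to 177392697, minus strand, GENCODE 29 on GRCh38) had 2982, 2955 and 3015 normalized counts in the MDA-MB-436 siNT libraries and 3022, 3138 and 2942 in the siPHF19 libraries. In BoM-1833 it had 1595, 1610.1 and 1487 in siNT and 1560.4, 1670.1 and 1628 in siPHF19. The groups overlapped in each line, and the authors' deposited table gives log2 fold changes of 0.02 (SE 0.06, BH-adjusted p 0.832) and 0.05 (SE 0.07, BH-adjusted p 0.787). The 95% intervals of these differences run from -0.10 to 0.15 and from -0.09 to 0.19, that is, a change of -6.72% to 10.9% against control in MDA-MB-436 and one of -6.19% to 14.1% in BoM-1833. AGPS lies across part of NFE2L2 on the opposite strand.

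KEAP1, the substrate adaptor that marks NRF2 for degradation (chromosome 19, 10486120 to 10503741, minus strand), showed a similar picture. Its normalized counts were 1295, 1232 and 1194 in MDA-MB-436 siNT against 1177, 1254 and 1317 in siPHF19. They were 1673, 1478 and 1562 in BoM-1833 siNT against 1567, 1584 and 1633 in siPHF19. Each line's groups overlapped. In the authors' deposited table its log2 fold changes are 0.01 (SE 0.08, BH-adjusted p 0.945) and 0.02 (SE 0.07, BH-adjusted p 0.927), with 95% intervals from -0.15 to 0.17 and from -0.13 to 0.17.

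TXNRD1, the cytosolic thioredoxin reductase, a selenoprotein that uses NADPH to keep thioredoxin reduced, was the member that changed most in MDA-MB-436 (chromosome 12, 104215779 to 104350305, plus strand). It rose there from 10278, 11490.2 and 11868 normalized counts in siNT to 14994, 14707 and 14624 in siPHF19, so that the lowest treated library lay above the highest control. The mean went from 11212 ± 831 to 14775 ± 194 (SD, n = 3 each), a fold of 1.32. By the authors' deposited table its log2 fold change was 0.40 (SE 0.07, BH-adjusted p 4.38e-07). This rise was called in every one of the 6 DESeq2 fits that left out 1 library, with estimates from 0.34 to 0.44 and adjusted p-values of at most 6.33e-04. TXNRD1 overlaps EID3 on the same strand, and reads in the shared stretch may be counted for either.

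In BoM-1833 the same gene did not pass the test. TXNRD1 had 7765, 8345 and 7979 normalized counts in siNT and 7879.7, 7874 and 7754 in siPHF19, and the groups overlapped. The log2 fold change in the authors' deposited table is -0.04 (SE 0.05, BH-adjusted p 0.805), with a 95% interval from -0.14 to 0.07. The difference between the lines was itself tested, with z as the gap between both log2 fold changes divided by its SE. It was 0.43 (95% interval 0.26 to 0.61, SE 0.09, BH-adjusted p 1.18e-04 by the z test over 12290 genes), where 4.89% of genes were called. It was called in each of the 12 fits that left out 1 library, from 0.38 to 0.48.

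SRXN1, sulfiredoxin, which restores overoxidized peroxiredoxins (chromosome 20, 646615 to 653370, minus strand), did not pass in either line. It had 3189, 3013 and 3012 normalized counts in MDA-MB-436 siNT and 3154, 3206 and 3310.0 in siPHF19. In BoM-1833 it had 1292, 1229 and 1197 in siNT and 1169, 1224 and 1099 in siPHF19. The groups overlapped in both lines, with log2 fold changes of 0.07 (SE 0.06, BH-adjusted p 0.492) and -0.09 (SE 0.08, BH-adjusted p 0.583) in the authors' deposited table. The difference between lines was 0.16 (95% interval -0.04 to 0.36, BH-adjusted p 0.464, z test).

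The 2 subunits of glutamate-cysteine ligase, the rate-limiting enzyme of glutathione synthesis, had lower means after siPHF19 in both lines, and the modifier subunit GCLM was the one called. GCLM (chromosome 1, 93885205 to 93909456, minus strand) fell in BoM-1833 from 643, 770.0 and 756 normalized counts in siNT to 574, 609 and 592 in siPHF19. The lowest control lay above the highest treated library, and the mean went from 723 ± 69.5 to 592 ± 17.3 (SD, n = 3 each). By the authors' deposited table its log2 fold change was -0.29 (SE 0.10, BH-adjusted p 0.0404). The call rests on a narrow margin: it was lost in 5 of the 6 fits without 1 library, those without siNT replicate 2 or 3 or any of the siPHF19 replicates, with estimates from -0.37 to -0.24 over the 6 and adjusted p-values of up to 0.279, and it was also lost with the filter on low counts removed.

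In MDA-MB-436 GCLM had 1150.5, 1243 and 1353 normalized counts in siNT and 1030.2, 1087 and 1136 in siPHF19, again without overlap. It did not pass there, with a log2 fold change of -0.20 (SE 0.09, BH-adjusted p 0.0932) in the authors' deposited table, though without siNT replicate 1 it did (-0.26, BH-adjusted p 0.0173, DESeq2). The values of the 2 lines were not found to differ (difference 0.09, 95% interval -0.18 to 0.35, BH-adjusted p 0.828, z test). GCLC, the catalytic subunit (chromosome 6, 53497341 to 53616970, minus strand), had 663, 658 and 651 in MDA-MB-436 siNT and 659.6, 608 and 577 in siPHF19. In BoM-1833 it had 702, 756 and 665 in siNT and 590.0, 676 and 688 in siPHF19. Its groups overlapped in both lines, and the authors' deposited table gives -0.10 (SE 0.10, BH-adjusted p 0.525) and -0.12 (SE 0.10, BH-adjusted p 0.550).

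HMOX1, heme oxygenase 1, which opens the heme ring and releases iron and biliverdin, is induced by NRF2 and held down by the repressor BACH1 (chromosome 22, 35380361 to 35394214, plus strand, no overlapping gene). In MDA-MB-436 it had 412, 502 and 462 normalized counts in siNT and 491, 525 and 586 in siPHF19, with overlap. In BoM-1833 it had 264, 252 and 243 in siNT and 189, 196 and 209 in siPHF19, all treated libraries below all controls. In the authors' deposited table the estimates thus had opposite signs, -0.36 (SE 0.14, BH-adjusted p 0.0902) in BoM-1833 and 0.22 (SE 0.12, BH-adjusted p 0.195) in MDA-MB-436, and neither was called. On the recovered reads edgeR called HMOX1 lower in BoM-1833 (-0.36, BH-adjusted p 0.0321), as did limma on log2(value + 1) (-0.35, BH-adjusted p 0.0322). DESeq2 called it there in 0 of the 6 fits that left out 1 library (BH-adjusted p 0.168 to 0.327).

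The difference of HMOX1 between lines passed narrowly, at 0.57 (95% interval 0.21 to 0.94, SE 0.19, BH-adjusted p 0.0439, z test). In 11 of the 12 fits that left out 1 library, all but the one without MDA-MB-436 siNT replicate 3, it did not pass, with estimates from 0.50 to 0.65 and adjusted p-values of up to 0.201. BACH1 itself had log2 fold changes of -0.22 (BH-adjusted p 0.0908) in BoM-1833 and 0.04 (BH-adjusted p 0.829) in MDA-MB-436 by the authors' deposited table, with overlapping groups; the part of the repressor in the HMOX1 values was not tested.

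NQO1, the quinone reductase most often used as a readout of NRF2 activity (chromosome 16, 69706996 to 69726951, minus strand), lay lower in every siPHF19 library but by little. It had 3924, 3618 and 3481 normalized counts in MDA-MB-436 siNT against 3276, 3403 and 3389 in siPHF19. In BoM-1833 it had 2029, 1984 and 1938 in siNT against 1827, 1862 and 1856 in siPHF19. The groups did not overlap in either line, yet the gene did not pass the test, with log2 fold changes of -0.13 (SE 0.07, BH-adjusted p 0.186) and -0.10 (SE 0.07, BH-adjusted p 0.398) in the authors' deposited table. The 95% intervals run from -0.27 to 0.01 and from -0.23 to 0.03.

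ME1, the cytosolic malic enzyme that makes NADPH from malate (chromosome 6, 83210389 to 83431071, minus strand), had 1963, 1976 and 1924 normalized counts in MDA-MB-436 siNT and 2001, 1919 and 1998 in siPHF19, with overlap. In BoM-1833 it had 841, 894 and 824 in siNT and 763, 808 and 772 in siPHF19, without overlap. Neither difference passed, at 0.01 (SE 0.07, BH-adjusted p 0.921) and -0.13 (SE 0.09, BH-adjusted p 0.434) in the authors' deposited table.

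**Figure D2:**
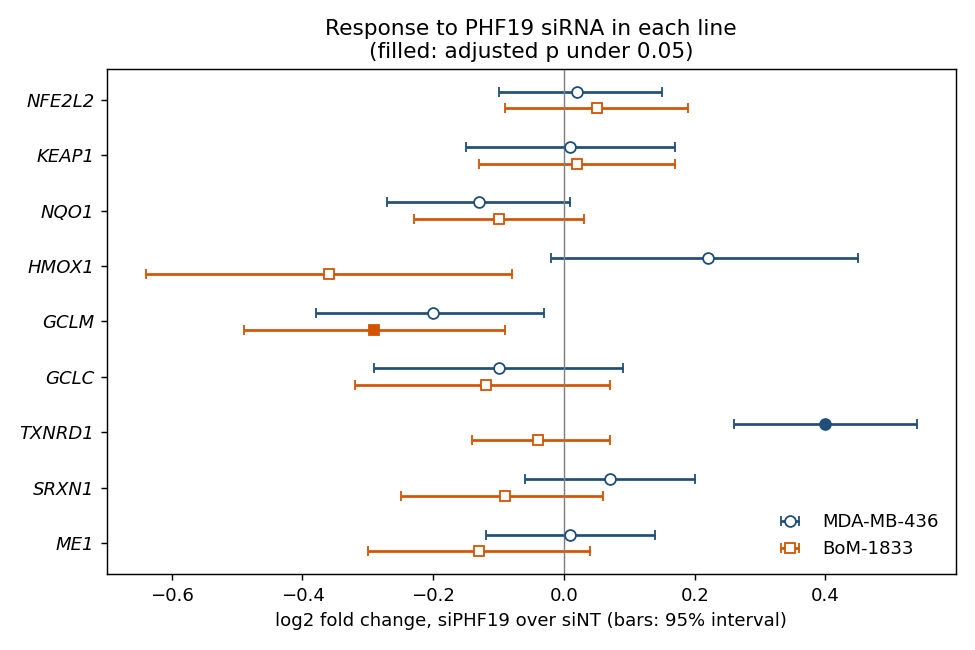
Log2 fold changes of siPHF19 over siNT (x axis) for the 9 genes (y axis) in MDA-MB-436 (circles) and BoM-1833 (squares), with 95% intervals as bars and filled symbols where the adjusted p is under 0.05. TXNRD1 in MDA-MB-436 (0.40) and GCLM in BoM-1833 (-0.29) are the filled symbols; HMOX1 lies on opposite sides of 0 in the 2 lines.

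Counted over libraries, 3 of the 9 members had groups that did not overlap in MDA-MB-436 (TXNRD1 higher, NQO1 and GCLM lower), against 42.2% of all genes tested there. In BoM-1833 4 members did (NQO1, HMOX1, GCLM and ME1, each lower), against 31.0% in either direction and 15.7% lower. NQO1 and GCLM were lower without overlap in both lines, where 8.01% of the 12290 genes tested in both lines were; 0 members were higher without overlap in both, against 7.81%. Across the 12 libraries, with log2 values centred within each line, the 36 pairs of members had Pearson correlations from -0.73 (NQO1 with TXNRD1) to 0.64 (HMOX1 with ME1) and a median of 0.16, so the members did not vary as one block. These correlations describe libraries that share line, treatment and depth. The genes most like NFE2L2 by this measure, among 9820 with a mean of at least 100 normalized counts in both lines, were CCNB2 (r = 0.80), SPRYD7 (0.79) and DLD (0.79). They are the highest of many correlations over 12 libraries, and whether they exceed what so many comparisons give was not tested.

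Per kilobase of annotated exon, the control level of TXNRD1 was the highest of the family and that of GCLC the lowest in both lines. The length joined the exons of all protein-coding transcripts of a gene, from 1.94 kb for HMOX1 to 6.92 kb for GCLC. A single transcript can be shorter, so the order, and the place of GCLC in it, depends on the length used. In MDA-MB-436 siNT the normalized count per kilobase was 2099.6 ± 156 for TXNRD1, 1178 ± 72.8 for NQO1, 1138 ± 37.9 for SRXN1, 579.9 ± 8.11 for ME1, 548 ± 5.45 for NFE2L2, 349 ± 14.3 for KEAP1, 255 ± 20.6 for GCLM, 236 ± 23.4 for HMOX1 and 95.0 ± 0.871 for GCLC (SD, n = 3 each). The libraries of NQO1 and SRXN1 overlapped on this scale, as did those of GCLM and HMOX1, while the other neighbours in the order did not. In BoM-1833 siNT the order was TXNRD1 (1504 ± 54.9), NQO1 (636 ± 14.6), SRXN1 (459 ± 17.9), KEAP1 (443 ± 27.6), NFE2L2 (287 ± 12.3), ME1 (253 ± 10.8), GCLM (148 ± 14.2), HMOX1 (130.5 ± 5.46) and GCLC (102 ± 6.64), again per kilobase with SD and n = 3. There SRXN1 and KEAP1 overlapped, and so did GCLM and HMOX1. The 2 tables were normalized separately, so levels are ordered within a line and not tested between lines.

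Beyond the 9 members, 100 other genes of the NRF2 system in 7 lists gave calls in both directions. In MDA-MB-436 13 of 93 tested were called higher and 15 lower, 30.1% in all against 22.1% of all genes tested, with a median log2 fold change of -0.05. In BoM-1833 7 of 95 were called higher and 7 lower, 14.7% against 10.9%, with a median of 0.00. These differences in share were not tested. Without 1 library the counts ranged from 3 to 16 higher and 7 to 22 lower in MDA-MB-436, and from 2 to 10 higher and 4 to 8 lower in BoM-1833. The drops by over 1.5 times came without siNT replicate 2 or any siPHF19 replicate in MDA-MB-436. In BoM-1833 they came without siNT replicate 2 (2 higher) or siPHF19 replicate 1 (4 higher and 4 lower), 2 or 3 (3 higher each).

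Among 18 regulators of the system, including NRF1 and NRF3, the BACH repressors, the small MAF proteins and ubiquitin ligase parts, 4 rose and 1 fell in MDA-MB-436, and 2 fell in BoM-1833. Called shares of the regulators were 27.8% and 11.1%, against 22.1% and 10.9% of all genes. The regulator with the largest statistic in both lines was NFE2L3, which encodes NRF3, a factor of the same cap'n'collar family that NRF2 belongs to. NFE2L3 fell from 1272, 1102 and 1123 normalized counts in siNT to 613, 639 and 550.3 in siPHF19 in MDA-MB-436, and from 3509, 3466 and 3686 to 2703, 2739.9 and 2759 in BoM-1833. Every treated library lay below every control, and the authors' deposited table gives log2 fold changes of -0.95 (SE 0.10, BH-adjusted p 3.15e-19) and -0.38 (SE 0.06, BH-adjusted p 3.28e-08). The decrease was larger in MDA-MB-436 (difference -0.58, SE 0.12, BH-adjusted p 9.76e-05, z test), and the calls in both lines and of the difference were made in every fit that left out 1 library. MAFF, a small MAF protein that pairs with NRF2, went opposite ways in the authors' deposited table, at 0.28 (BH-adjusted p 0.00678) in MDA-MB-436 and -0.30 (BH-adjusted p 0.0184) in BoM-1833. Its difference of 0.58 passed in all 12 leave-one-out fits (BH-adjusted p 3.52e-04, z test), while the MAFF calls within a line were lost in 3 of 6 such fits in MDA-MB-436 and 5 of 6 in BoM-1833, where the highest BH-adjusted p was 0.125 and 0.131.

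**Figure D3:**
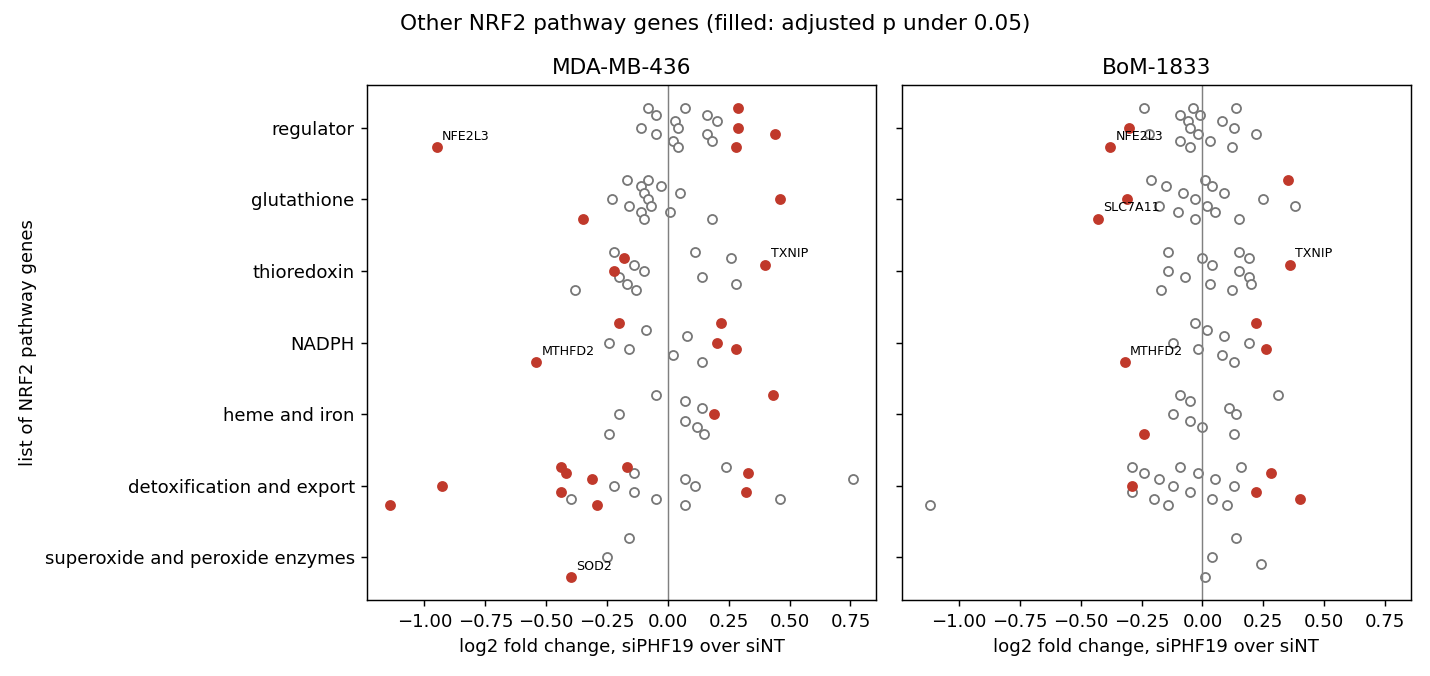
Log2 fold changes of siPHF19 over siNT (x axis) of the tested genes in 7 lists of the NRF2 system (y axis), in MDA-MB-436 (left) and BoM-1833 (right). Each circle is 1 gene and filled circles have an adjusted p under 0.05; filled circles lie on both sides of 0 in both lines, and NFE2L3 is the lowest regulator in each.

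Of the genes that supply NADPH, 3 rose and 2 fell among 11 in MDA-MB-436, and 2 rose and 1 fell in BoM-1833, or 45.5% and 27.3% called against 22.1% and 10.9% of all genes. IDH1, the cytosolic isocitrate dehydrogenase, rose from 1386, 1202 and 1225 normalized counts to 1512, 1519 and 1609.6 in MDA-MB-436, and from 2377, 2324 and 2349 to 2632, 2922 and 2664 in BoM-1833, without overlap. Its log2 fold changes are 0.28 (BH-adjusted p 0.00653) and 0.22 (BH-adjusted p 0.0120) by the authors' deposited table. MTHFD2, a mitochondrial enzyme of folate metabolism, fell from 6412, 5887 and 5793 to 4066, 4149 and 4228 in MDA-MB-436, and from 1039.9, 980.3 and 974 to 728, 822 and 852 in BoM-1833. Its groups did not overlap, and its log2 fold changes are -0.54 (BH-adjusted p 6.32e-14) and -0.32 (BH-adjusted p 0.00521) in the authors' deposited table. Without 1 library the call of IDH1 was lost in 4 of 6 fits in MDA-MB-436 (without siNT replicate 2 or any siPHF19 replicate, up to 0.133). In BoM-1833 IDH1 was lost in 3 (without siNT replicate 2 or siPHF19 replicate 2 or 3, up to 0.238) and MTHFD2 in 1 (without siPHF19 replicate 1, 0.119).

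In the thioredoxin list 1 of 14 rose and 2 fell in MDA-MB-436, and 1 rose in BoM-1833. These shares, 21.4% and 7.14%, stand beside 22.1% and 10.9% of all genes. TXNIP, which binds and inhibits thioredoxin, was the one that rose in both lines, from 8489 ± 313 to 11209 ± 256 normalized counts and from 4484 ± 333 to 5771 ± 170.3 (SD, n = 3 each). The authors' deposited table gives 0.36 (SE 0.07, BH-adjusted p 1.99e-06) in BoM-1833 and 0.40 (SE 0.06, BH-adjusted p 1.10e-09) in MDA-MB-436, and TXNIP was called in every leave-one-out fit in both lines. In the glutathione list 1 gene rose and 1 fell of 16 in MDA-MB-436, and 1 rose and 2 fell of 18 in BoM-1833. The glutathione shares called were 12.5% and 16.7%, against the same 22.1% and 10.9% of all genes. SLC7A11, the cystine importer that feeds glutathione synthesis, had 2840.2, 4229 and 3543 normalized counts in BoM-1833 siNT and 2726, 2511 and 2613 in siPHF19, so the groups did not overlap although the controls were widely spread. It fell by 0.43 (SE 0.10, BH-adjusted p 6.40e-04) on the log2 scale there in the authors' deposited table, and the call was lost without siNT replicate 3 or siPHF19 replicate 1 (adjusted p of up to 0.245). In MDA-MB-436 SLC7A11 did not pass, at -0.10 (BH-adjusted p 0.620) in the authors' deposited table, and it was called lower without siNT replicate 1 (BH-adjusted p 0.0248). The difference of 0.34 between lines did not pass (BH-adjusted p 0.258, z test), except without MDA-MB-436 siNT replicate 3 or BoM-1833 siNT replicate 1 (0.47 each).

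Detoxification and export genes made up the longest list, in which 2 of 21 rose and 8 fell in MDA-MB-436, and 3 of 20 rose and 1 fell in BoM-1833. That is 47.6% and 20.0% called, against 22.1% and 10.9% of all genes. ALDH3A2, a fatty aldehyde dehydrogenase, fell in both lines, by 0.31 (BH-adjusted p 0.00250) and 0.29 (BH-adjusted p 0.00373) on the log2 scale in the authors' deposited table. ABCC5, an organic anion exporter, rose in both, by 0.32 (BH-adjusted p 0.0270) and 0.28 (BH-adjusted p 0.0294) in the authors' deposited table. AKR1B1, an aldose reductase, went opposite ways in the authors' deposited table, at -0.17 (BH-adjusted p 0.0222) in MDA-MB-436 and 0.22 (BH-adjusted p 0.00270) in BoM-1833, a difference of -0.39 (BH-adjusted p 1.96e-04, z test). Without 1 library the MDA-MB-436 calls of ALDH3A2 were lost in 3 of 6 fits (without siNT replicate 2 or siPHF19 replicate 1 or 3), those of ABCC5 in 4 (without siNT replicate 1 or 2 or siPHF19 replicate 1 or 2) and those of AKR1B1 in 4 (without siNT replicate 2 or any siPHF19 replicate), and the highest BH-adjusted p was 0.0793, 0.232 and 0.289. The BoM-1833 calls were lost in 2 fits for ALDH3A2 (without replicate 3 of either group), 5 for ABCC5 (all but that without siNT replicate 3) and 2 for AKR1B1 (without siNT replicate 2 or siPHF19 replicate 1), and the highest BH-adjusted p was 0.0967, 0.217 and 0.0631. edgeR and limma did not call AKR1B1 in MDA-MB-436.

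Heme and iron genes gave 2 higher of 10 in MDA-MB-436 and 1 lower of 10 in BoM-1833. Their called shares, 20.0% and 10.0%, stand beside 22.1% and 10.9% of all genes. Of the superoxide and peroxide enzymes, 1 of 3 tested (33.3%) fell in MDA-MB-436, and 0 of 4 were called in BoM-1833 (1 at an unadjusted p under 0.05, DESeq2). The one that fell was SOD2, the mitochondrial superoxide dismutase, from 17781, 17220.2 and 16269 normalized counts to 12788, 13533 and 12598, at -0.40 (SE 0.06, BH-adjusted p 2.07e-08) in the authors' deposited table. In BoM-1833 SOD2 had 0.01 (BH-adjusted p 0.966), and the difference between lines was -0.41 (BH-adjusted p 0.00632, z test), which did not pass without MDA-MB-436 siPHF19 replicate 1 or 3 (up to 0.0532).

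Several NRF2 targets, SLC7A11 among them, are also targets of ATF4, the factor of the amino acid and stress response. A list of 12 genes, ATF4 itself and targets of it, was therefore counted beside them. 3 of the 12 (SLC7A11, CHAC1 and SESN2) also belong to the lists above. In MDA-MB-436 2 rose and 5 fell, and in BoM-1833 0 rose and 4 fell, with medians of -0.10 and -0.17. ATF4 was 1 of the 5, at -0.36 (BH-adjusted p 0.00257) in the authors' deposited table, and was not called in BoM-1833 (BH-adjusted p 0.993). The shares called were 58.3% and 33.3%, against 22.1% and 10.9% of all genes. ASNS, asparagine synthetase, fell in both lines, by 0.31 (BH-adjusted p 0.00412) and 0.45 (BH-adjusted p 1.67e-05) on the log2 scale of the authors' deposited table. DDIT4, a stress-induced inhibitor of mTORC1, fell by 0.88 (SE 0.33, BH-adjusted p 0.0405) in MDA-MB-436 and by 0.27 (SE 0.06, BH-adjusted p 2.57e-04) in BoM-1833, per the authors' deposited table. ATF3, a stress-induced factor, rose in MDA-MB-436 by 0.56 (BH-adjusted p 2.30e-05) and PHGDH, the first enzyme of serine synthesis, fell there by 0.43 (BH-adjusted p 5.21e-07) in the authors' deposited table. Neither was called in BoM-1833 (-0.15 with BH-adjusted p 0.792, and -0.01 with BH-adjusted p 0.967). The difference between lines did not pass for ATF3 by the z test, and was called in 1 of 12 fits without 1 library (0.61 to 0.79). That of PHGDH passed (-0.41, BH-adjusted p 0.0155, z test) but was lost in 7 of the 12. The MDA-MB-436 call of ASNS was lost without siPHF19 replicate 1 or 2 (up to 0.0952) and that of DDIT4 without any of the siNT replicates (up to 0.212).

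The siRNA sequences are not given in the labels. The 6-base sequence AAACTG occurred in the annotated 3′ UTR of 74.1% of 363 genes called lower in both lines. It occurred in 38.0% of 297 called higher in both and 46.0% of 7807 called in neither. In that order, median 3′ UTR lengths were 1838, 1862 and 1346 bases, with 0.768, 0.335 and 0.453 sites per kilobase. The sequence was known from earlier results on these data, so these shares are no independent check of it. Among the members, GCLM held it 4 times in 3785 bases of 3′ UTR and NQO1, GCLC and SRXN1 1 time each, while NFE2L2, KEAP1, HMOX1, TXNRD1 and ME1 held it 0 times. Of 11018 genes tested in both lines, 47.7% held it. The 3 members with estimates below 0 in both lines, NQO1, GCLM and GCLC, were among the 4 that held it. Of these 3 only GCLM was called, and only in BoM-1833. Of the 4 members lower without overlap in BoM-1833, NQO1 and GCLM held it. HMOX1 (log2 fold change -0.36 there) and ME1 (-0.13) held it 0 times. NFE2L3 held it 4 times in 1342 bases. The part of these letters in any of the changes was not tested. They are shown in capitals with 12 bases on either side, from GENCODE 29 transcripts, numbered from the first base after the stop codon.
GCLM, base 424: ttacaattgttaAAACTGaaatactggaag
GCLM, base 2655: aataattacttaAAACTGaaagctaagtta
GCLM, base 2889: ttcccatccatgAAACTGtagtcaccaaaa
GCLM, base 3744: ctatttgaactcAAACTGagtatgatttga
NQO1, base 1104: tttatcattgctAAACTGatgacttactat
GCLC, base 1184: gcataaatatttAAACTGtaatatgctaac
SRXN1, base 828: cctcctgcaataAAACTGggatcccattac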

How the data were processed

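Each line has a table of DESeq2 results. The signal per library in the deposited tables is a normalized count, reads over a size factor. Fold changes were deposited by the authors on the log2 scale with the Wald statistic as a score, and the p-values that the text credits to the deposited table are the authors' own; those of the z test, of edgeR, of limma and of fits without 1 library were computed here. The submitters' processing notes name STAR, RSEM 1.3.1, DESeq2 1.46.0 and hg38; annotation and use of strand in counting are not given in the sources used here, so overlapping genes may share reads. No column of values (0) belonged to no sample, and 28 gene names per table had become dates and are not named.

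In every library 100% of non-zero values lay within 0.05 reads of a whole multiple of 1 step, so whole reads were recovered; for BoM-1833 siPHF19 replicate 1 the size factor, 1.0068, is so near 1 that this check says little. DESeq2 1.42.0 on them called 3143 genes (MDA-MB-436) and 1411 (BoM-1833), as the deposited tables do; edgeR 4.0.16 (quasi-likelihood test) called 3422 and 1527. limma 3.58.1 was run on log2(value + 1) of genes with a mean of at least 10. The fits were tested on simulated data. Intervals are the estimate ± the 95% normal range of the deposited SE.

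Named genes are the 9 members; genes of the 7 lists called in both lines; the 4 with the largest absolute Wald statistic per line; 2 such ATF4 targets per line; PHF19; and the 3 most like NFE2L2. The result of 1 gene that the rule names is not reported here. Other names were chosen after their values were seen. Members and lists were chosen with earlier results of these data known.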

Additional observations from a re-analysis of the deposited data

Results flagged for a closer look

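The effect of siPHF19 differed between the lines for 2 of the 9 members and 5 other named genes. The measure was the z test of the difference of log2 fold changes (MDA-MB-436 minus BoM-1833). It called 4.89% of the 12290 genes tested in both lines. Named genes outside the members were chosen by their calls within the lines, so their count gives no share for the pathway. Some pathway genes that are not named here also passed. TXNRD1 differed by 0.43 (adjusted p 1.18e-04), with the 3 treated libraries above the 3 controls in MDA-MB-436 only. HMOX1 differed by 0.57 (adjusted p 0.0439). MAFF differed by 0.58 (adjusted p 3.52e-04) and AKR1B1 by -0.39 (adjusted p 1.96e-04), each with non-overlapping groups of opposite direction in the 2 lines. NFE2L3 differed by -0.58 (adjusted p 9.76e-05), being lower in 3 of 3 treated libraries in both. SOD2 differed by -0.41 (adjusted p 0.00632) and PHGDH by -0.41 (adjusted p 0.0155), with overlapping groups in BoM-1833; the PHGDH difference did not pass in 7 of 12 fits without 1 library (up to 0.124).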

How the results depend on the processing

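TXNRD1 was the 1 member called higher in MDA-MB-436, and 0 were called higher in BoM-1833, under every alternative run; other scalings moved the median of all genes by at most 0.008 on the log2 scale. The count of members called lower in MDA-MB-436 was 0 except without 1 library (0 to 1). In BoM-1833 it was 2 by edgeR with TMM, without a count filter or with upper-quartile scaling and by limma with either pseudocount (1 or 5), HMOX1 joining GCLM. It was 0 with no independent filtering, at an adjusted p under 0.01 or with the replicate block, and 0 to 1 without 1 library. Members that differed between lines fell from 2 to 1 (TXNRD1) at an adjusted p under 0.01 and in the interaction fit with the replicate block, and were 1 to 2 without 1 library.

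Pathway genes called at an adjusted p under 0.01 were 8 higher and 8 lower in MDA-MB-436 and 4 higher in BoM-1833. Of the 7 pathway genes called lower in BoM-1833, all but MAFF also stayed under 0.01. Without 1 library pathway calls were 3 to 16 higher and 7 to 22 lower in MDA-MB-436. In BoM-1833 they were 2 to 10 higher and 4 to 8 lower. Deviations of same-numbered siNT and siPHF19 libraries correlated at -0.23, 0.04 and -0.27 in MDA-MB-436 and at -0.31, -0.12 and -0.20 in BoM-1833. Those of libraries with unlike numbers correlated at -0.04 to 0.27 and at -0.19 to 0.33. Whether same-numbered libraries were handled together cannot be told from these values. With the replicate block pathway calls were 2 higher and 7 lower in MDA-MB-436 and 1 higher and 2 lower in BoM-1833, and calls over all genes 1610 and 610. Of the calls of named genes, those of MAFF, IDH1, AKR1B1, ALDH3A2, ABCC5 and ASNS in MDA-MB-436, those of GCLM (0.262), MAFF, IDH1, MTHFD2, AKR1B1, ALDH3A2, ABCC5 and SLC7A11 (0.309) in BoM-1833 and the differences of HMOX1 (0.23) and PHGDH (0.141) were not made with the block, and the other named calls were.

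Estimates near 0 changed sign in fits without 1 library, with an adjusted p of at least 0.804 wherever the sign had changed. The ranges were 0.00 to 0.05 for NFE2L2, -0.03 to 0.05 for KEAP1 and -0.23 to 0.03 for SLC7A11 in MDA-MB-436. In BoM-1833 they were -0.02 to 0.07 for KEAP1, -0.04 to 0.08 for SOD2 and -0.09 to 0.05 for PHGDH. For the difference between lines they were -0.05 to 0.01 for NFE2L2, -0.06 to 0.03 for KEAP1, -0.06 to 0.02 for NQO1, -0.04 to 0.07 for GCLC, 0.00 to 0.09 for TXNIP, -0.06 to 0.03 for ALDH3A2 and -0.05 to 0.10 for ABCC5. The causes were not tested. With 3 libraries a group and SEs of 0.05 to 0.14 for the members, small changes may go uncalled.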

Other observations

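TXNRD1 is a selenoprotein, so the other human selenoprotein genes were looked up; this list was written after the values were seen, and it shares GPX1, GPX2, GPX4 and the thioredoxin reductases with the lists above. Of 25 genes, 17 were tested in each line. In MDA-MB-436 2 rose (TXNRD1 and SELENOT) and 4 fell, 35.3% called against 22.1% of all genes tested. The median log2 fold change was -0.07, and edgeR called 6 and limma 4. TXNRD1, which prompted the list, is counted in the 35.3%, so that share was partly fixed in advance. Its difference from the share of all genes was not tested. In the authors' deposited table the 4 that fell are GPX1, a glutathione peroxidase (-0.35, adjusted p 0.00321), SELENOH (-0.49, adjusted p 0.00875), SELENOK (-0.40, adjusted p 0.0151) and SELENOM (-0.35, adjusted p 0.0309), and SELENOT has 0.27 (adjusted p 0.0111). In BoM-1833 DESeq2 called 0 of 17, with 0 at an unadjusted p under 0.05, and edgeR and limma also called 0; whether the selenoprotein genes as a group differ between lines was not tested.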
